A study of Mus musculus with 2 samples.

Results

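Gata3 occupancy was described at 10 integrin genes other than *Itgav* and *Itgb3*, out of 21938 protein-coding genes in GENCODE M21 (GRCm38). They comprise 5 α subunit genes (*Itga1*, *Itga2*, *Itga4*, *Itgae* and *Itgal*) and 5 β subunit genes (*Itgb1*, *Itgb2*, *Itgb6*, *Itgb7* and *Itgb8*). The members were chosen by name, with earlier peak counts of the same libraries already known, so their number of sites is a description and carries no test. Each locus was the gene body plus 20 kb either side. Between them the loci covered 1106 kb and held 33 Gata3 sites found in both libraries, out of 23806 such sites in the genome. The neighbours *Itga1* and *Itga2* share flanking sequence and 2 of these sites.

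Integrins are cell surface receptors made of an α and a β chain, which bind matrix proteins or counter-receptors on other cells and link them to the cytoskeleton. In T lymphocytes the β2 and β7 families and the α4 chain serve arrest on endothelium, homing and retention in epithelia, whereas αv pairs with several β chains and binds matrix proteins and latent TGF-β. Gata3 is the zinc finger transcription factor that directs TH2 differentiation and recognises short GATA sequences in DNA.

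The data were 2 Gata3 ChIPmentation libraries of mouse splenic TH2 cells expanded *in vitro*, numbered 1 and 2 in the labels and belonging to a single group. The antibody was anti-GATA3 (D13C9), and the labels give no genotype, treatment, time or age, nor whether the replicates came from separate mice or cultures. The names of the deposited files carry a Cre mark that the labels do not explain. The labels call the cells ILC2 in the extraction protocol and TH2 cells in every other field. Neither an input nor a control antibody library was analysed, and with a single condition a site can be read only against the reads around it.

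Library 1 held 40526613 reads and library 2 held 24970952, a mean of 2.97 and 1.83 reads per 200 bp. Instrument names differ between the libraries' reads, and so library and sequencing run cannot be told apart. All 5 TH2 marker loci examined (*Gata3*, *Il4*, *Il5*, *Il13* and *Il1rl1*) held a site shared by the libraries, beside 54.8% of all protein-coding loci. The *Il4* and *Il13* loci overlap and share their tallest site, so these are not independent loci. No ILC2 library was compared, so sites at the marker loci do not tell the TH2 and ILC2 names in the labels apart. The *Trdd1* to *Trdj2* segments, which αβ T cells delete when they rearrange the receptor α locus, held 7 reads in library 1 and 4 in library 2. This was 2.02% and 1.87% of the mean read density. A peak is a run of 200-bp windows with more reads than the local background (q of 0.01), and a site is a library 1 peak overlapped by a library 2 peak. Site height is given in RPM (reads-per-million), the reads counted in the 200 bp at a library's own summit and scaled to library size, with 95% counting intervals where they are printed. Intervals cover counting error only.

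Of the 10 loci, 9 held a shared site, against 54.8% of all protein-coding loci. Within the gene body alone 7 of 10 genes held one, against 29.4% of protein-coding genes. Within 2 kb of the start only *Itga2* and *Itgb2* did, against 11.7%. Nothing is read from these shares, since earlier counts were known when the genes were chosen. Counted with library 1 peaks alone the loci held 70 sites, and with library 2 peaks alone 35. The 33 shared sites fell in introns in 20 cases, upstream of the member in 9 and downstream in 4. With 1 start taken per protein-coding gene, the nearest was the member's own for 24 of them and a neighbouring gene's for the remaining 9. At 2 of these 9, in *Itga1* and *Itgb1*, a start of another annotated transcript of the member lay nearer still.

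**Figure D1:**
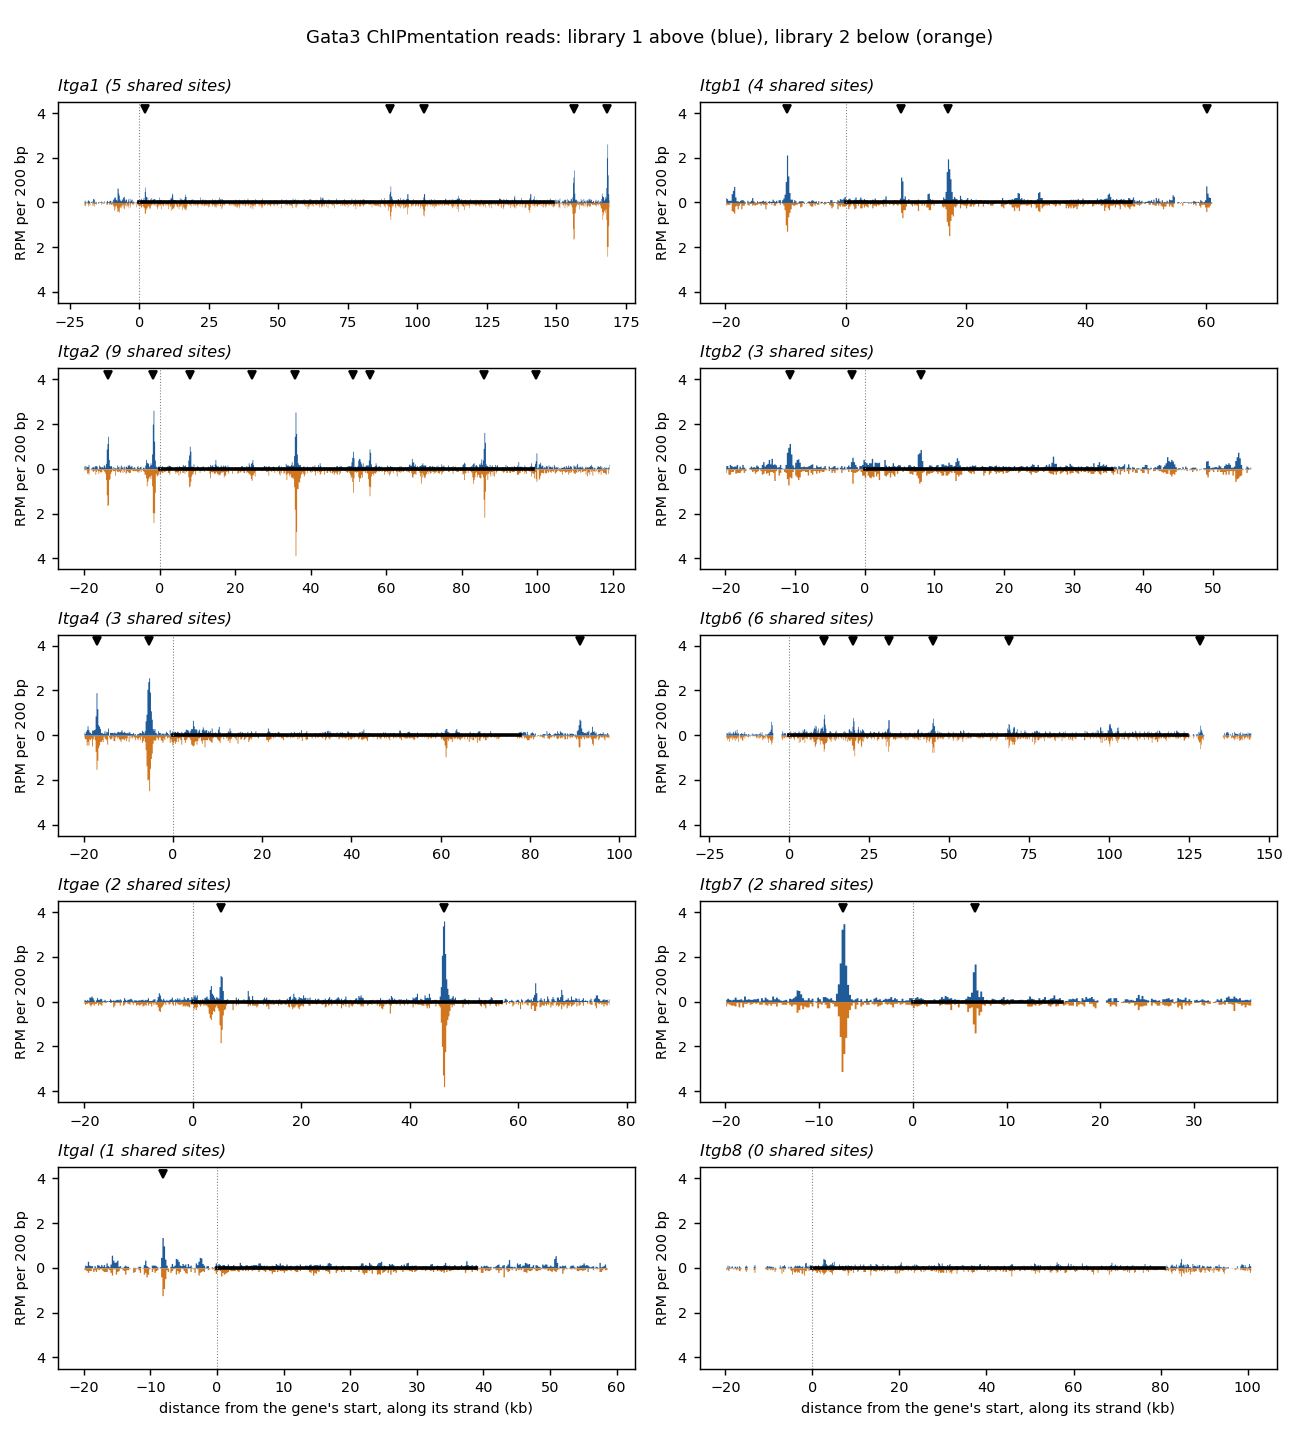
RPM in 200-bp bins (vertical axis, library 1 above and library 2 below the line) against distance in kb from each gene's start, with the gene body as a black bar and shared sites as triangles. *Itga2* holds 9 triangles along its locus, the tallest summit is that of *Itgb7* in library 1 (3.83 RPM) and of *Itga2* in library 2 (4.01 RPM), and *Itgb8* has no shared site.

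The number of sites was set against the length of each locus. *Itga2* held 9 sites, or 6.47 per 100 kb, at the 97.8th percentile of protein-coding loci. *Itgb1* followed with 4.57 per 100 kb, *Itgb2* with 3.98, *Itgb6* with 3.65 and *Itgb7* with 3.57. *Itga1* held 2.65, *Itga4* 2.55, *Itgae* 2.06 and *Itgal* 1.27 per 100 kb, and *Itgb8* held 0. The members' median was 3.11 per 100 kb, beside 0.955 over all protein-coding loci. Nothing is read from this gap, since earlier counts were known when the genes were chosen. Counts of 0 to 9 sites are too small to separate neighbours in this order. With library 1 peaks alone *Itga2* held 12 sites in 139.0 kb and *Itgb2* 9 in 75.5 kb, so *Itga2* no longer led per length. The *Itga1* locus, the longest at 188.9 kb, held 5 sites, of which 3 were in the gene body and 2 are the upstream sites of *Itga2*, among 433 GATA words. The *Itgb7* locus, the shortest at 55.95 kb, held 2 among 87.

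Order by height differed from order by number. The tallest site of each locus, taken as the lower of the 2 libraries, stood at 3.70 RPM in *Itgae*, 3.13 in *Itgb7*, 2.62 in *Itga2*, 2.52 in *Itga4*, 1.48 in *Itgb1*, 1.24 in *Itgal*, 0.881 in *Itgb6* and 0.721 in *Itgb2*. The 2.62 RPM site also lies in the *Itga1* locus as drawn, 0.604 kb inside its edge, and the tallest site in the *Itga1* gene body reached 0.741 RPM. Counting intervals of the *Itgae* and *Itgb7* sites overlapped in both libraries, as did those of the *Itgb6* and *Itgb2* sites. Over the 33 sites the height ranged from 0.444 to 3.70 RPM with a median of 0.801, the same as the median over all 23806 shared sites. There were 16 member sites above that median and 5 above the 90th percentile of 1.98 RPM.

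**Figure D2:**
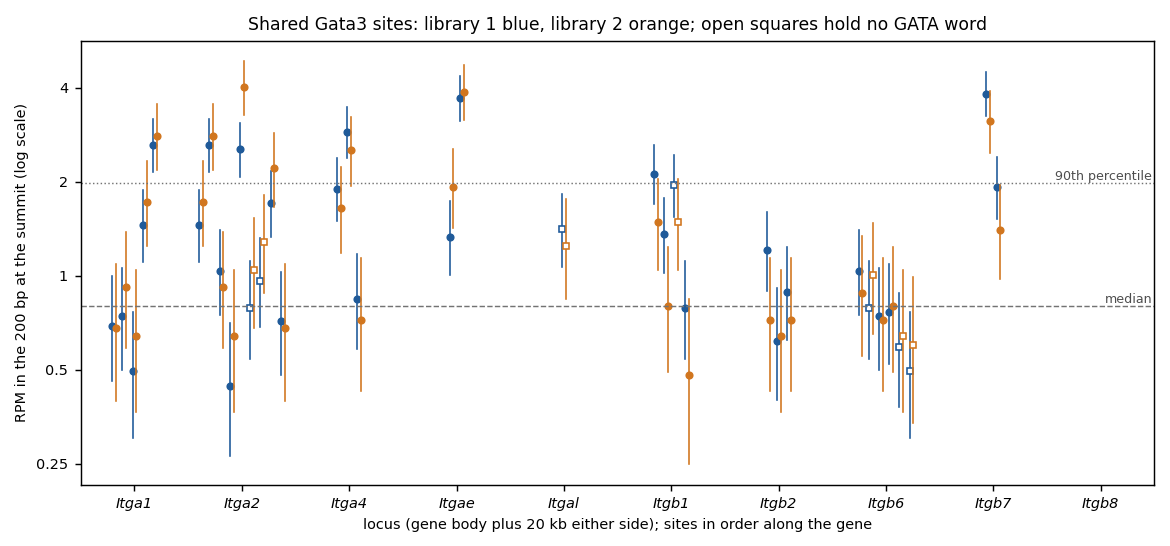
RPM at the summit of each shared site on a log axis, by locus, in library 1 (blue) and library 2 (orange), with 95% Poisson intervals; open squares mark sites without a GATA word, and dashed and dotted lines the median and 90th percentile of all shared sites. Sites of *Itgae*, *Itgb7*, *Itga2* and *Itga4* rise above the upper line in both libraries, while every *Itgb6* site lies near or under 1 RPM. Sites in both the *Itga1* and *Itga2* loci are drawn under each, so the *Itga2* site at 2.62 RPM in library 1 also rises above the line under *Itga1*.

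*Itga1* and *Itga2* encode the α1 and α2 chains, which join β1 as receptors for collagens. Both are on the minus strand, *Itga2* at chr13:114833081-114932100 and *Itga1* at chr13:114953096-115101964. The site 1600 bp upstream of *Itga2* reached 2.62 RPM (2.14 to 3.17) in library 1 and 2.80 RPM (2.19 to 3.54) in library 2. It was the tallest promoter-proximal site of any member, and the libraries did not differ at it beyond counting error. A second tall site lay 36.0 kb into the gene in intron 2 and reached 2.54 RPM (2.08 to 3.08) in library 1 and 4.01 RPM (3.26 to 4.87) in library 2. Library 2 was higher there, by 1.45-fold over the whole site (1.21 to 1.73). The sequences of these sites are shown because they are among the 5 tallest of the members, with the GATA words in capitals. The intron 2 word lay 12.5 bp from the library 1 summit. The upstream word lay 91.5 bp from the library 1 summit of its site, near the edge of the window. It starts at 114933789, close to the library 2 summit of that site at 114933800. Positions are chr13:114933601-114933800 and chr13:114896001-114896200, read on the plus strand.
Itga2 1600 bp upstream: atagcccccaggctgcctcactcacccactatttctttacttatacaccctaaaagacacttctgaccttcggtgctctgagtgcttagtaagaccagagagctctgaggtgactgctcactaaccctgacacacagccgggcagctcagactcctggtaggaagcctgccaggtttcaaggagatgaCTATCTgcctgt
Itga2 intron 2: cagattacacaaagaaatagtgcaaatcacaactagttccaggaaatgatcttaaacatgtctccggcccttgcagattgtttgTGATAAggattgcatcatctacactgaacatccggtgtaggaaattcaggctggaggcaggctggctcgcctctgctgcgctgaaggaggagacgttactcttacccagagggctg

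The remaining *Itga2* sites were of mixed height. A site 13600 bp upstream, between *Itga2* and the end of *Itga1*, gave 1.46 RPM in library 1 and 1.72 RPM in library 2. It held a GATA word and an AP-1 word in the same 200 bp. In intron 25, 86.0 kb from the start, library 1 gave 1.70 RPM (1.33 to 2.16) and library 2 was 1.22-fold of it over the site (0.952 to 1.57). Lower sites in introns 1, 5 and 7 gave 1.04 and 0.922, 0.790 and 1.04, and 0.963 and 1.28 RPM in libraries 1 and 2. The lowest, also in intron 1 at 24.6 kb, gave 0.444 and 0.641 RPM. Past the 3′ end, at 99.8 kb from the start, a site with 0.716 and 0.681 RPM overlapped an untranslated exon of *Mocs2*, a molybdenum cofactor synthesis gene that runs towards *Itga2*. Its start is also the nearest to the intron 25 site. In all, sites covered 4.24% of the *Itga2* locus and held 29.2% of its reads in library 1 and 27.1% in library 2. The rest of a locus, here and below, is what lies outside every peak of either library. In *Itga2* it stood above the library mean, at 4.22 reads per 200 bp against 2.97 in library 1 and 3.58 against 1.83 in library 2. This held for every member, from 3.12 (*Itgb8*) to 4.99 (*Itgb2*) in library 1 and from 2.13 (*Itgb8*) to 3.58 (*Itga2*) in library 2. Over the whole locus library 2 was 1.32-fold higher than library 1 (1.26 to 1.38) after scaling, the widest gap of any member.

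Inside the *Itga1* gene body 3 low sites were found. They lay in intron 1, 2.1 kb from the start (0.691 and 0.681 RPM), in intron 8 at 90.3 kb (0.741 and 0.922 RPM) and in intron 11 at 102.3 kb (0.494 and 0.641 RPM). Each held a GATA word, and the libraries did not differ at any of them beyond counting error. With 1 start per gene, the nearest is that of *Gm49395* for the intron 1 site (2021 bp away), although another annotated *Itga1* start lies nearer, at 1810 bp. It is that of *Pelo*, a ribosome rescue factor gene inside *Itga1*, for the intron 8 site, and that of *Itga2* for the intron 11 site. A shared site just outside the locus, 2.84 kb beyond the upstream edge, gave 0.518 and 0.561 RPM.

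*Itga4* encodes the α4 chain, which forms VLA-4 with β1 and the gut homing receptor with β7, and binds VCAM-1, MAdCAM-1 and fibronectin. The gene spans chr2:79255426-79333123 (plus strand). Its gene body held 0 shared sites, and both tall sites lay upstream. The nearer, 5376 bp before the start, reached 2.89 RPM (2.39 to 3.46) in library 1 and 2.52 RPM (1.94 to 3.23) in library 2. At 1150 bp it was also the widest member site. The farther, 17126 bp upstream, gave 1.90 and 1.64 RPM. They stood 27.4-fold and 18.0-fold over the rest of the locus in library 1, and 21.8-fold and 14.2-fold in library 2, and the libraries did not differ at either beyond counting error. Over the local background, which includes a site's own reads, the folds were 4.84 and 5.58 in library 1 and 4.27 and 4.58 in library 2. Both passed a q of 1e-10, but the locus held 0 shared sites at 5-fold or more over the local background and 0 with a flank of 5 kb. A low site 91.2 kb from the start, inside the ceramide kinase like gene *Cerkl*, gave 0.839 and 0.721 RPM. The nearer upstream site, chr2:79249951-79250150, held 2 GATA words in the same orientation, 39 bp apart from start to start.
Itga4 5376 bp upstream: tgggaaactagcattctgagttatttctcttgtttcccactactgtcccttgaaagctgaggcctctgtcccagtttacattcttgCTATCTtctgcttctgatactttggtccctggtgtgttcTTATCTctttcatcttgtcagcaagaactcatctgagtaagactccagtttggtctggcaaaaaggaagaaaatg

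*Itgae* encodes αE (CD103), the partner of β7 in the E-cadherin receptor of intraepithelial lymphocytes. Its coordinates are chr11:73090583-73147446, plus strand. The tallest of all 33 sites by the lower of the libraries lay here, in intron 26, 46.3 kb from the start, although *Itgb7* held a taller site in library 1 and *Itga2* in library 2. It reached 3.70 RPM (3.13 to 4.35) in library 1 and 3.89 RPM (3.15 to 4.74) in library 2, and the ratio of the libraries over the site was 1.01 (0.877 to 1.17). It stood at the 98.6th percentile of all shared sites. This intron also contains *Haspin*, a gene for a histone H3 kinase. The summit window overlaps the *Haspin* exon outside its untranslated parts, 1444 bp from the *Haspin* start, so the position belongs to both genes and the reads do not say which, if either, is concerned. The other site, in intron 1 at 5.2 kb, gave 1.33 RPM in library 1 and 1.92 RPM in library 2, and library 2 was higher there by 1.34-fold (1.02 to 1.75). The intron 26 site, chr11:73136751-73136950, held GATA words in opposite orientations, 111 bp apart.
Itgae intron 26: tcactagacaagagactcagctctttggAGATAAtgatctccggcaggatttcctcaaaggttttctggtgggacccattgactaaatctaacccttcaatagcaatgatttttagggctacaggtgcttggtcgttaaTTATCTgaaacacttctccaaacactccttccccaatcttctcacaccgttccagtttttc

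*Itgal* encodes αL, which with β2 makes LFA-1, the receptor for ICAM family ligands in T cell contacts. It occupies chr7:127296260-127335138, plus strand. Its locus held 1 shared site, 8110 bp upstream, reaching 1.41 RPM (1.07 to 1.82) in library 1 and 1.24 RPM (0.844 to 1.76) in library 2, and none in the gene body. The site overlaps an exon of the long noncoding gene *Gm31897*. No GATA or AP-1 word was found within 100 bp of its summit, although it stood 13.6-fold and 12.8-fold over the rest of the locus and, against its local background, 6.25-fold and 5.54-fold. That locus held 0 shared sites at a q of 1e-10, where the genome's 23806 fell to 5154, and 0 with a flank of 5 kb. It is printed as the tallest α chain site, by the lower of the libraries, without a GATA word. The window, chr7:127288051-127288250, has an ETS word (AGGAAG), which is not capitalised.
Itgal 8110 bp upstream: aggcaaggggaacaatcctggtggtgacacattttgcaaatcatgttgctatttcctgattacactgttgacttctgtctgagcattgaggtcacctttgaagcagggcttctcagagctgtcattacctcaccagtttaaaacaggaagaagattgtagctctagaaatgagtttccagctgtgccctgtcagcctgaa

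*Itgb7* encodes the β7 chain, partner of α4 and αE, at chr15:102215995-102231944 (minus strand). Both of its sites passed a q of 1e-10 in each library. The taller lay 7456 bp upstream and reached 3.83 RPM (3.25 to 4.48) in library 1 and 3.13 RPM (2.47 to 3.90) in library 2. It lies inside *Rarg*, the retinoic acid receptor γ gene, and its summit window overlaps an exon of that gene, although the nearest start is that of *Itgb7*. In intron 2, 6.6 kb from the start, a site gave 1.93 and 1.40 RPM, with library 1 higher (ratio of library 2 to library 1 of 0.734, 0.546 to 0.977). The shares of locus reads inside these sites were 30.9% and 26.9%, in 2.95% of its length. The upstream site, chr15:102239301-102239500, was the richest in G and C among the members (61.5%). It held a GATA word starting at 102239405, 7.5 bp from the library 1 summit, while the library 2 summit lay at 102239500.
Itgb7 7456 bp upstream: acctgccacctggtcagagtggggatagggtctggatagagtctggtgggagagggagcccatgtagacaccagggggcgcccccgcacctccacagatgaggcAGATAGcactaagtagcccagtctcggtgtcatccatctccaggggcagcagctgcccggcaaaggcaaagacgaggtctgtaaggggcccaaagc

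*Itgb2* encodes the β2 chain of the leukocyte integrins, at chr10:77530252-77565708 (plus strand). It held 3 low sites. The site 1802 bp upstream of the start gave 0.617 RPM (0.399 to 0.911) in library 1 and 0.641 RPM (0.366 to 1.04) in library 2. Its TGATAA word lay 2.5 bp from the library 1 summit, and the summits of the libraries were 50 bp apart. A site 10702 bp upstream gave 1.21 RPM in library 1 and 0.721 RPM in library 2, and the start of *Fam207a* is nearer to it. In intron 1, 8.1 kb from the start, 0.889 and 0.721 RPM were measured. Library 1 was higher at the latter sites beyond counting error, with ratios of 0.549 (0.387 to 0.766) and 0.668 (0.455 to 0.966). None of the 3 passed a q of 1e-10, and none was called at 5-fold or more over the local background. These thresholds cut the genome's 23806 shared sites to 5154 and 6365.

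The β chains known to pair with αv are β1, β3, β5, β6 and β8. For reference, the *Itgav* locus held 5 shared sites (4.08 per 100 kb), with the tallest 1297 bp upstream of its start at 3.51 and 4.09 RPM. Among the partner genes, shared sites numbered 4 in *Itgb1*, 5 in *Itgb3*, 4 in *Itgb5*, 6 in *Itgb6* and 0 in *Itgb8*, so 4 of the 5 loci held one, beside 54.8% of all protein-coding loci. None of the 5 held a site within 2 kb of its start, beside 11.7% of all protein-coding genes. The lower of the libraries at the tallest site was 2.49 RPM in *Itgb3*, 1.48 in *Itgb1*, 1.08 in *Itgb5* and 0.881 in *Itgb6*. Per length the order was *Itgb3* (4.88 per 100 kb), *Itgb1* (4.57), *Itgb6* (3.65), *Itgb5* (2.51) and *Itgb8* (0). Such counts are too small to separate neighbours in this order. With library 1 peaks alone *Itgb5* held 12 in 159.7 kb and *Itgb6* 11 in 164.4 kb, so these changed places. Counting intervals of their tallest sites overlapped in both libraries, and no site of either passed a q of 1e-10. The *Itgb5* count includes 2 sites past its 3′ end, 112 and 1412 bp from the start of *Umps*.

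*Itgb1*, the shared β chain of many matrix receptors, spans chr8:128685654-128733200 (plus strand). The site 9754 bp upstream gave 2.12 RPM (1.70 to 2.62) in library 1 and 1.48 RPM (1.04 to 2.04) in library 2. In intron 1, sites at 9296 bp and 17046 bp gave 1.36 and 0.801 RPM, and 1.95 and 1.48 RPM. A last site, 60.1 kb from the start and inside *Ccdc7a*, gave 0.790 and 0.481 RPM. With 1 start per gene *Gm3952* has the nearest start to it, 52944 bp away, but another annotated *Itgb1* start lies at 21417 bp. Library 1 was higher at all 4, beyond counting error at 3, with ratios from 0.598 to 0.710. The median ratio over all shared sites was 0.883, and the intervals at these 3 include it. Over the whole locus the ratio was 0.916 (0.855 to 0.982), so the gap was wider at the sites than in the locus as a whole. Shared sites across the genome leaned to library 1 as well, with library 1 higher at 5028 and library 2 at 1652 of those that differed. The farther intron 1 site held no GATA word and had the lowest G and C content of any member site (28.0%), whereas each of the other 3 held 2 GATA words. The stretch around the GATA word nearest the summit of the upstream site, chr8:128675862-128675907, is given as an example from the αv partner genes.
Itgb1 9754 bp upstream: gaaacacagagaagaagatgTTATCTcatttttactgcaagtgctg

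*Itgb6*, whose β6 chain joins only αv and is known mainly from epithelia, spans chr2:60598292-60722643 (minus strand). It had more sites than any other β gene of the members, and all 6 were low, from 0.494 to 1.04 RPM in library 1 and from 0.601 to 1.002 RPM in library 2. In intron 1 lay 4, at 10.9, 19.9, 31.1 and 44.9 kb from the start. Intron 8 held 1 at 68.6 kb, and 1 lay downstream at 128.5 kb, where *Pla2r1* has the nearest start. Relative to other annotated transcripts of the gene, the 19.9 kb site lay 2878 bp and the 44.9 kb site 3946 bp from a start. The libraries did not differ at any of the 6 beyond counting error. None passed a q of 1e-10, at which the genome's 23806 shared sites fell to 5154. GATA words were found at 3 of them. The tallest by the lower of the libraries, at 10.9 kb, gave 1.04 RPM (0.747 to 1.40) and 0.881 RPM (0.552 to 1.34). Its AGATAA word starts at 60711710, 37.5 bp from the library 1 summit. The library 2 summit, at 60711850, was more than 100 bp from the word. The stretch around the word is chr2:60711690-60711735.
Itgb6 intron 1: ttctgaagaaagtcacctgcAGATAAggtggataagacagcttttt

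*Itgb8*, whose β8 chain joins αv to release active TGF-β from its latent form, spans chr12:119158022-119238802 (minus strand). Its locus held 0 shared sites under each setting tried that used both libraries. The 1915 reads of library 1 and 1297 of library 2 in the locus were 1.07-fold and 1.17-fold the library means, the lowest of any member in both. Library 1 alone called 2 weak peaks, at 84.7 kb downstream of the start with 0.444 RPM (0.361 in library 2) and in intron 6 at 56.2 kb with 0.346 RPM (0.200 in library 2). The locus was not poor in GATA words, with 269, or 2.23 per kb, beside 2.25 per kb over all member loci. Empty 200-bp tiles, which held no read in either library, made up 6.97% of it, less than in *Itgb1* (10.53%) and *Itgb6* (8.53%) and more than in the other 7 loci (2.28% to 4.42%). The count of 0 holds at these depths only, and weaker sites could not be seen.

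The libraries were set side by side at every site. Their ratio over the site interval, library 2 over library 1 after scaling, had a median of 0.883, the same as over all shared sites, and ranged from 0.549 to 1.45. It differed from 1 beyond counting error at 9 of 33 member sites, beside 28.1% of all shared sites. Library 1 was higher at 7 of these, of which 3 were in *Itgb1*, 2 in *Itgb2* and 1 each in *Itga4* and *Itgb7*. Of these 7 intervals, only that of the upstream one of the 2 *Itgb2* sites leaves out the median of 0.883. Library 2 was higher at 1 site in *Itga2* and 1 in *Itgae*. Among all shared sites that differed, library 1 was higher at 5028 and library 2 at 1652, so library 1 was the higher one more often in both sets. The summits of the libraries lay within 100 bp of each other at 23 of the 33 sites (median gap 100 bp), and at 18886 of all 23806 (median gap 50 bp).

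**Figure D3:**
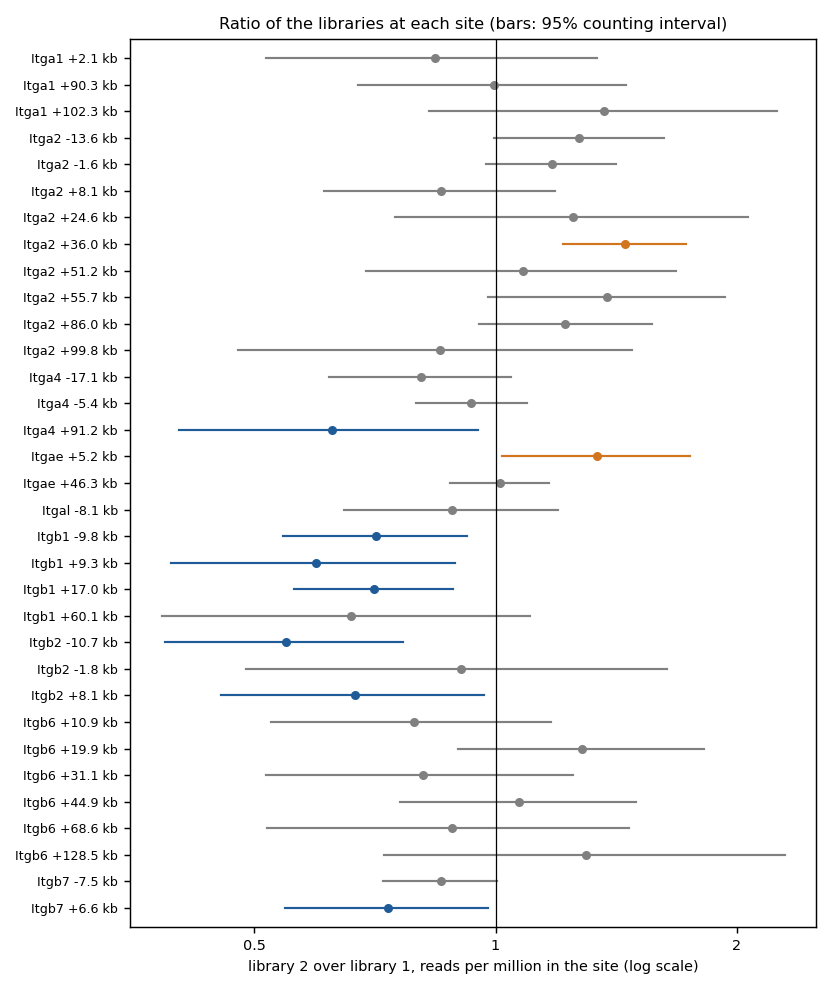
Ratio of library 2 to library 1 at each of the 33 sites on a log axis, with exact 95% intervals; blue marks sites higher in library 1, orange sites higher in library 2 and grey sites where the interval includes 1. All 4 *Itgb1* ratios lie under 1, whereas 7 of the 9 *Itga2* ratios lie above it.

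A GATA word, meaning GATA after A or T and before A or G on either strand, was found within 100 bp of the summit at 26 of 33 member sites (78.8%, exact 95% binomial interval 61.1% to 91.0%). It was found at 70.9% of all shared sites and in 37.7% of 200-bp tiles of the genome. The same letters in reverse order, which have the same base content, occurred at 32.8% of all shared sites and in 33.2% of tiles. At the member sites 37 words were counted, and the 16 matches to AGATAA and 12 to TGATAA outnumbered 7 to AGATAG and 2 to TGATAG. The median distance to the nearest word was 38.0 bp from the library 1 summit, around which all words were sought. Summits were placed in steps of 50 bp, and those of library 2 often lay elsewhere. There were 2 words at 11 sites (33.3%, beside 25.8% of all shared sites with at least 2), in the same orientation at 6 and opposite at 5, from 19 to 150 bp apart. The loci as a whole held 2484 GATA words, so 1.49% of them lay within 100 bp of a shared summit.

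Sites above the median height held a GATA word in 13 of 16 cases and those at or below it in 13 of 17. For all shared sites these shares were 72.5% and 69.4%. Of the 7 member sites without a GATA word, 3 lay in *Itgb6*, 2 in *Itga2*, and 1 each in *Itgal* and *Itgb1*. None of the 7 held an AP-1 word either. Among all 23806 shared sites, 16880 held a GATA word and 5934 held neither word, so most sites without a GATA word also lacked an AP-1 word. A match is a description of the letters under the summit, and its absence says only that these letters were not in the window.

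Words for other factors of T cells were less frequent. AP-1 words (TGAGTCA or TGACTCA) were found at 3 sites (9.09%), beside 12.3% of all shared sites and 3.10% of tiles. These lay 13600 bp upstream of *Itga2*, 10702 bp upstream of *Itgb2* and 60.1 kb from the start of *Itgb1*. Each held a GATA word too, as did 70.9% of all shared sites. RUNX words (TGTGGT or TGCGGT on either strand) were found at 5 sites (15.2%), ETS words (AGGAAG or CGGAAG) at 11 (33.3%) and STAT words (TTC and GAA separated by 3 or 4 bases) at 6 (18.2%). All shared sites held these at 18.5%, 27.2% and 13.0%, and the genome tiles at 14.7%, 22.6% and 12.9%. Each of the member shares had a binomial interval that included the share of all shared sites.

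**Figure D4:**
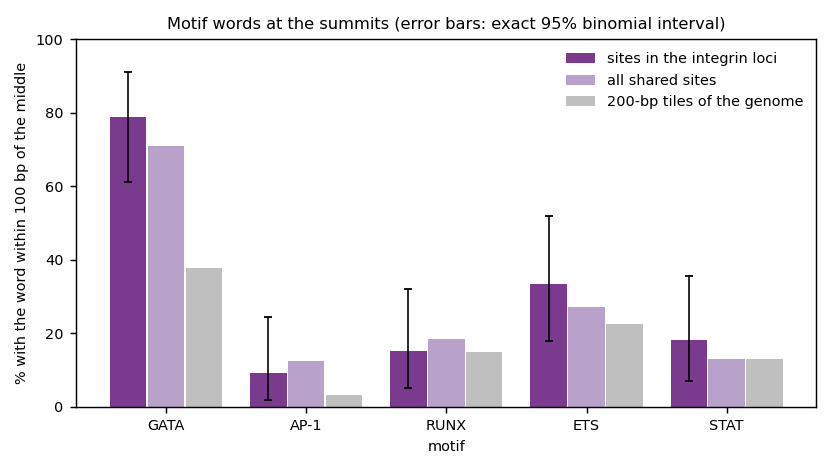
Percentage of the 33 member sites, of all shared sites and of 200-bp genome tiles that hold each motif word within 100 bp of the middle, with exact 95% binomial intervals on the member sites. GATA words are found at 78.8% of member sites and in 37.7% of tiles, and the other 4 motifs at 9.09% to 33.3% of member sites.

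Reads at the annotated starts were counted within 500 bp either side. These levels are not on the scale of site heights, which cover 200 bp. Among all protein-coding starts the members ranged from the 27.5th percentile (*Itgb8*) to the 91.3rd (*Itgb2*) in library 1. In library 2 they ranged from the 37.6th (*Itgb8*) to the 91.9th (*Itga4*). Within 500 bp of the start, *Itgb2* had the highest level in library 1, with 60 reads or 1.48 RPM (1.13 to 1.91), and 1.40 RPM (0.977 to 1.95) in library 2. *Itgb8* had the lowest in both, 0.420 RPM (0.244 to 0.672) and 0.521 RPM (0.277 to 0.891). In each library these intervals did not overlap, while genes next to each other in the order had overlapping intervals. At *Itga4* the libraries differed, 0.741 RPM in library 1 against 1.52 RPM in library 2, a ratio of 2.06 (1.24 to 3.44). The intervals of the ratio included 1 for the other 9 genes. The share of all protein-coding starts whose interval leaves out 1 was not counted, so nothing is read from *Itga4* here. Over all protein-coding genes the median was 0.593 RPM in library 1 and 0.641 RPM in library 2. In the 300 bp from 250 before to 50 after the start, 4 members held a GATA word (*Itgae*, *Itgal*, *Itgb2* and *Itgb7*), beside 27.6% of all protein-coding starts. Neither *Itga2* nor the other 5 did.

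**Figure D5:**
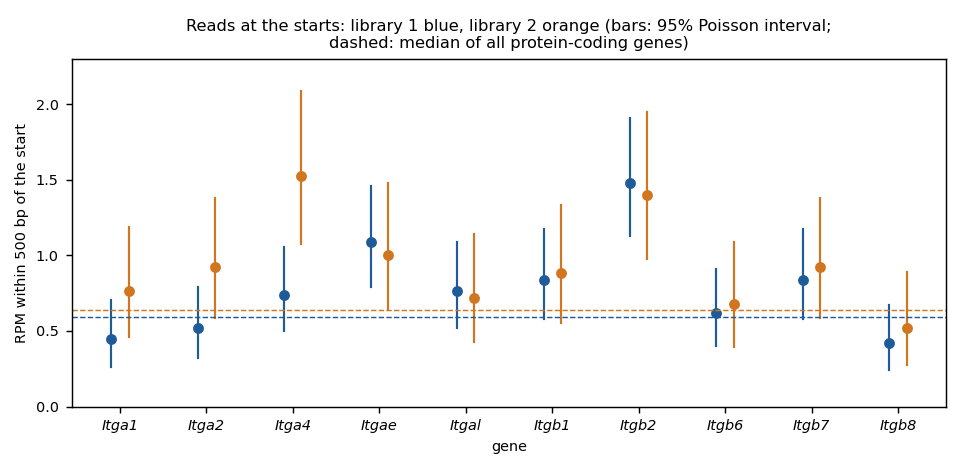
RPM within 500 bp of each member's start in library 1 (blue) and library 2 (orange) with 95% Poisson intervals, and the medians of all protein-coding genes as dashed lines. *Itgb2* and several other members are above both medians in each library, and *Itgb8* is below both. *Itga4* is the gene at which the intervals of the ratio of the libraries leave out 1.

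Peaks found in a single library were a further layer. Of all 71726 library 1 peaks in the genome, 23806 had a library 2 counterpart, and of the 70 in the loci 33 had one. The other 37 in the loci had none. Their median was 0.518 RPM in library 1, beside 0.321 RPM at the same places in library 2. In library 2 these places ranged from 0.0801 to 0.881 RPM, and the lowest value is that of 2 reads. A GATA word was found at 25 of the 37 (67.6%), beside 70.9% of all shared sites and 37.7% of genome tiles. The share over all library 1 peaks without a counterpart was not counted. Of 35 library 2 peaks in the loci, 2 were not called in library 1, 1 in *Itga4* and 1 in *Itgae*. The genome-wide number of such peaks was not counted. Library 1 peaks with no counterpart included 6 in *Itgb2*, 5 each in *Itga1*, *Itgae* and *Itgb6*, and 2 in *Itgb8*.

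Around the locus edges, several sites would move with the flank. The *Itgb1* locus ended 7.45 kb past its last site, and the next shared site outside lay 7.35 kb farther on at 0.370 and 0.401 RPM. The next site upstream of *Itgb6* lay 5.06 kb outside, at 0.790 and 0.841 RPM. For *Itgb8* the nearest shared sites lay 55.6 kb and 129.3 kb outside its locus.

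Among the 17 other integrin genes 12 loci held a shared site, 5 within the gene body and 4 within 2 kb of the start, beside 54.8%, 29.4% and 11.7% of all protein-coding genes. The highest were in *Itgav* (3.51 RPM), *Itga3* (2.74 RPM), whose α3 chain is a laminin receptor subunit, and *Itgb3* (2.49 RPM). Among 12 genes for ligands of these integrins, 5 loci held a shared site, 3 within the gene body and 2 within 2 kb of the start, which can be read against the same 54.8%, 29.4% and 11.7%. The highest were in the loci of *Cdh1* (2.91 RPM), which encodes E-cadherin, and of *Icam1* and *Thy1* (1.92 RPM each), which encode a ligand of LFA-1 and a T cell surface glycoprotein. The *Icam1* and *Thy1* gene bodies held 0 sites, so those sites lie in the 20 kb flanks. *Vcam1*, *Madcam1* and *Fn1*, ligand genes of the α4 integrins, held none. The median tallest height was 0.922 RPM in the other integrin loci, 0 in the ligand loci and 2.003 RPM in the member loci, beside 0.521 RPM over all protein-coding loci. The 2.62 RPM site enters the member median for both *Itga1* and *Itga2*. Loci were not matched for length and earlier counts were known when the members were chosen, so nothing is read from these medians.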

How the data were processed

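Gata3 ChIPmentation reads of 2 libraries of a single group were analysed. Single-end reads had been aligned to GRCm38 by the authors (the submitters' processing notes name Bowtie2 2.3.5.1 and MACS2 2.1.2). For each read the authors deposited its coordinates, its strand and a mapping quality score, with duplicates removed (0 reads share a 5′ end and strand). That score served only as a filter in an alternative. It reaches 44, above what the aligner's default mode gives, so the alignment settings are uncertain.

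Reads on chromosomes 1 to 19, X and Y (40504814 and 24959052) were moved 100 bp downstream along their strand and tallied in 200-bp windows at steps of 50 bp. An exact one-sided Poisson test compared each window with a read with its background (the largest among the means over 5 kb, over 10 kb and over the library), with Benjamini-Hochberg adjustment to a q of 0.01. Local means include the site's own reads, which lowers folds. Windows within 100 bp were joined, giving 71726 and 28204 peaks. Shared sites overlap by at least 1 bp and were placed by their library 1 summit. Ratio intervals are exact binomial (Clopper-Pearson) and level intervals exact Poisson, at 95%. Peak calling was also run on simulated reads with planted sites, and the recovery at the folds of the member sites is not reported here. Gene models were GENCODE M21, intron numbers follow the transcript with the most exons, and sequences came from the GRCm38.p6 genome.

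Genes named are the 10 members, *Itgav*, *Itgb3* and *Itgb5* as reference, the gene with the nearest start to a member site, the 3 highest of 17 other integrin and 12 ligand genes, and 5 TH2 marker genes. All member sites are described, the 5 highest with sequence. The members and lists were chosen with earlier results of these data known. *Haspin*, *Rarg*, *Cerkl*, *Ccdc7a* and *Gm31897* are named because a site lies in them, and *Vcam1*, *Madcam1*, *Fn1* and the printed sequences of *Itgal*, *Itgb1* and *Itgb6* were chosen after values were seen. *Umps* is named because its start is the nearest to 2 *Itgb5* sites. Alternatives were 2 stricter thresholds, 2 other window sizes, mapping quality of at least 30, summits within 100 bp, a thinned library 1, each library alone, other flanks and other motif settings. Python 3.11.15, NumPy 2.4.6, SciPy 1.17.1, pandas 2.3.3 and Matplotlib 3.10.9 were used.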

Additional observations from a re-analysis of the deposited data

How the results depend on the processing

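No paired analysis was possible because the series holds a single group. The 33 member sites fell to 12 at a q of 1e-10, to 12 at 5-fold or more over the local background and to 20 in the gene bodies alone, and numbered 35 and 70 in either library alone. All 23806 shared sites fell to 5154 at a q of 1e-10 and to 6365 at 5-fold. The members with a site numbered 6 to 10 under every alternative. The share of member sites with a GATA word was 39.4% for AGATAA only, beside 40.7% of all shared sites and 13.4% of genome tiles. It was 48.5% within 50 bp, 91.7% of the 12 sites at a q of 1e-10, and 72.9% to 74.3% in either library alone. Shares over all sites are not given at these last settings, so nothing is read from them. The share of protein-coding loci with a site, 54.8%, was 45.6% and 56.8% with 100-bp and 400-bp windows, 24.4% at 5-fold, 19.6% at a q of 1e-10, 39.6% with a flank of 5 kb, 29.4% in gene bodies, 52.4% with library 1 thinned, 49.3% with summits within 100 bp and 58.9% to 81.2% in either library alone. Of the counts for single members, 75 stayed within 1.5 times the count given and 35 did not, over 11 alternatives. Depth limits what can be called to sites several times over the surrounding reads, and a gene without a shared site is not shown to lack binding. With no input library, uneven recovery of open chromatin was not measured.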
